A study of Homo sapiens with 8 samples.

Results

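Internal ribosome entry sites are stretches of an mRNA's 5′ untranslated region that are reported to bring in a ribosome without the usual start from the 5′ cap. Many of the cellular mRNAs reported to hold such a site encode proteins of growth, cell division and survival. The use of such sites has been tied to the methylation of ribosomal RNA, which is set by fibrillarin, the enzyme encoded by FBL, with guide RNAs of the nucleolus. The cancer-related mRNAs followed here by symbol were MYC, CCND1, VEGFA, IGF1R, HIF1A, CDKN1B, XIAP, APAF1 and BCL2. All 9 members of the list were counted in input RNA and passed the filter on low counts, so none was left out, and they are 9 of the 58395 genes listed and of the 16503 genes tested. The list is drawn from reports of entry sites in reporter assays and other cells, and polysome RNA does not tell cap-driven from internally started translation.

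The series holds polysome and input RNA of OCI-AML3, an established human acute myeloid leukaemia line, sequenced as 8 libraries in 4 groups of 2. The groups are polysome RNA labelled FBL knockdown, polysome RNA labelled WT, input RNA labelled FBL knockdown and input RNA labelled WT, and the labelled WT cells are called control here because the protocol names a control hairpin, shCT, beside shFBL. All cells had been infected with a hairpin and then held with cycloheximide at 100 μg/mL for 15 min, which stops ribosomes on their mRNAs. Input RNA came from 100 μL of each cleared lysate and 290 μL went onto a sucrose gradient. The sources used here do not say which of the 14 fractions were combined as polysome RNA. Libraries carry the numbers 1 and 2, and an input and a polysome library with the same label and number come, by their titles and the protocol, from a single lysate. Nothing in the labels says that lysates were separate infections, so a p-value here weighs a difference against library-to-library spread that may be technical. In the main model that spread also holds any difference between numbers 1 and 2, which was large for FBL, as given below.

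Reads assigned to genes numbered from 22171255 in polysome knockdown 2 to 43118190 in input knockdown 2, and levels are given as CPM, the share of a library's reads that fall on a gene scaled to a common library size. Each of the 9 myeloid markers checked had reads in at least 1 library. Their sum was 2334 to 2502 CPM in polysome knockdown and 2491 to 2686 CPM in polysome control. In input RNA it was 2557 to 2561 CPM in knockdown and 2497 to 2522 CPM in control. That sum includes NPM1, a nucleolar protein gene that cells of any type use. The other 8 summed to 1445 to 1540.2 CPM in polysome knockdown, 1521 to 1778 CPM in polysome control, 1269 to 1426 CPM in input knockdown and 1135 to 1339.9 CPM in input control. The myeloperoxidase gene MPO was at or near 0 (0.00 to 3.72 CPM), and the summed markers of other lineages were low, at 0.289 to 2.94 CPM for 5 erythroid and megakaryocyte genes (2 of them at 0 in every library), 0.00 to 1.51 CPM for 4 epithelial and fibroblast genes (2 at 0) and 0.489 to 2.60 CPM for 4 lymphoid genes (3 at 0). The lymphoid sum was 2.12 to 2.60 CPM in polysome knockdown and 0.799 to 0.926 CPM in polysome control, and its part in the results by label was not tested. FBL itself did not follow the label. It stood at 499 and 165 CPM in the polysome libraries labelled knockdown and at 498 and 163 CPM in those labelled control (numbers 1 and 2). In input RNA it stood at 253 and 84.2 CPM in the libraries labelled knockdown and at 250 and 88.1 CPM in those labelled control. Between labels the log2 fold change of FBL was 0.01 in polysome RNA and -0.01 in input RNA (SE 0.69 each, adjusted p = 1, edgeR). FBL was thus low in the libraries numbered 2 under either label. The direction of every comparison by label below therefore rests on labels at odds with the counts of the targeted gene. In both fractions each label joins a library with high FBL counts and a library with low ones. A comparison by label, called or not, thus does not measure the loss of FBL.

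The start codon is where a ribosome must arrive by either route, and its surroundings are shown here for the 6 members whose sequence is reproduced, to place the mRNAs that the values describe. Each line gives 12 bases before the annotated start codon, the codon in capitals and 12 bases after it, 5′ to 3′, from GENCODE release 29 transcripts on GRCh38.
HIF1A, chr14:61695793-61695819, plus strand: gaccgattcaccATGgagggcgccggc
IGF1R, chr15:98649570-98649596, plus strand: caaataaaaggaATGaagtctggctcc
CDKN1B, chr12:12717828-12717854, plus strand: cccgggagaaagATGtcaaacgtgcga
XIAP, chrX:123885651-123885677, plus strand: tttcaagagaagATGacttttaacagt
APAF1, chr12:98648348-98648374, plus strand: atctgagggaagATGgatgcaaaagct
BCL2, chr18:63318652-63318678, minus strand: cctctgggaaggATGgcgcacgctggg
Among all 9 annotated transcripts the base 3 positions before the start codon was a purine in every case, against 84.2% of 13039 tested genes with an annotated coding transcript. A purine there together with a G right after the codon was found in 5 of the 9, against 44.6% of those genes. The transcript taken for MYC begins its reading frame at a codon other than ATG.

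Polysome against input RNA asks how far each mRNA sat in ribosome-bound RNA relative to its total amount, over all 4 lysates. In the model without pairing of lysates, 6 of the 9 members were lower in polysome RNA (CDKN1B, XIAP, MYC, VEGFA, HIF1A and APAF1). None was called higher in that model, where 42.9% of all genes were called. BCL2, CCND1 and IGF1R did not pass (edgeR quasi-likelihood test, adjusted p under 0.05 over all genes). Over all genes tested, 22.8% were called lower and 20.0% higher. These shares were larger among well-counted genes. In a fit of the 8194 genes averaging at least 10 CPM, 34.9% were called lower and 34.8% higher. IGF1R was not in that fit, and BCL2 was called lower there. The 6 members called lower in the first model had all 4 polysome libraries below all 4 input libraries, as had 22.7% of all genes. No member had them all above, as had 17.7%. The median log2 fold change (log2FC) was -0.85 over the members and -0.22 over all genes tested. Within the libraries labelled knockdown 5 members were called, where 28.5% of all genes were, and within those labelled control 3 were (CDKN1B, MYC and HIF1A), where 29.1% of all genes were. With the lysate as a block, which pairs each polysome library with its input, 8 of 9 were called, where 45.1% of all genes were. The calls added by pairing were BCL2, lower, and CCND1, higher in polysome RNA. All values are relative to the other RNAs of a library, so an overall loss or gain of polysomes would not be seen, and in bulk RNA a lower level in every cell and its loss from some cells cannot be told apart.

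**Figure D1:**
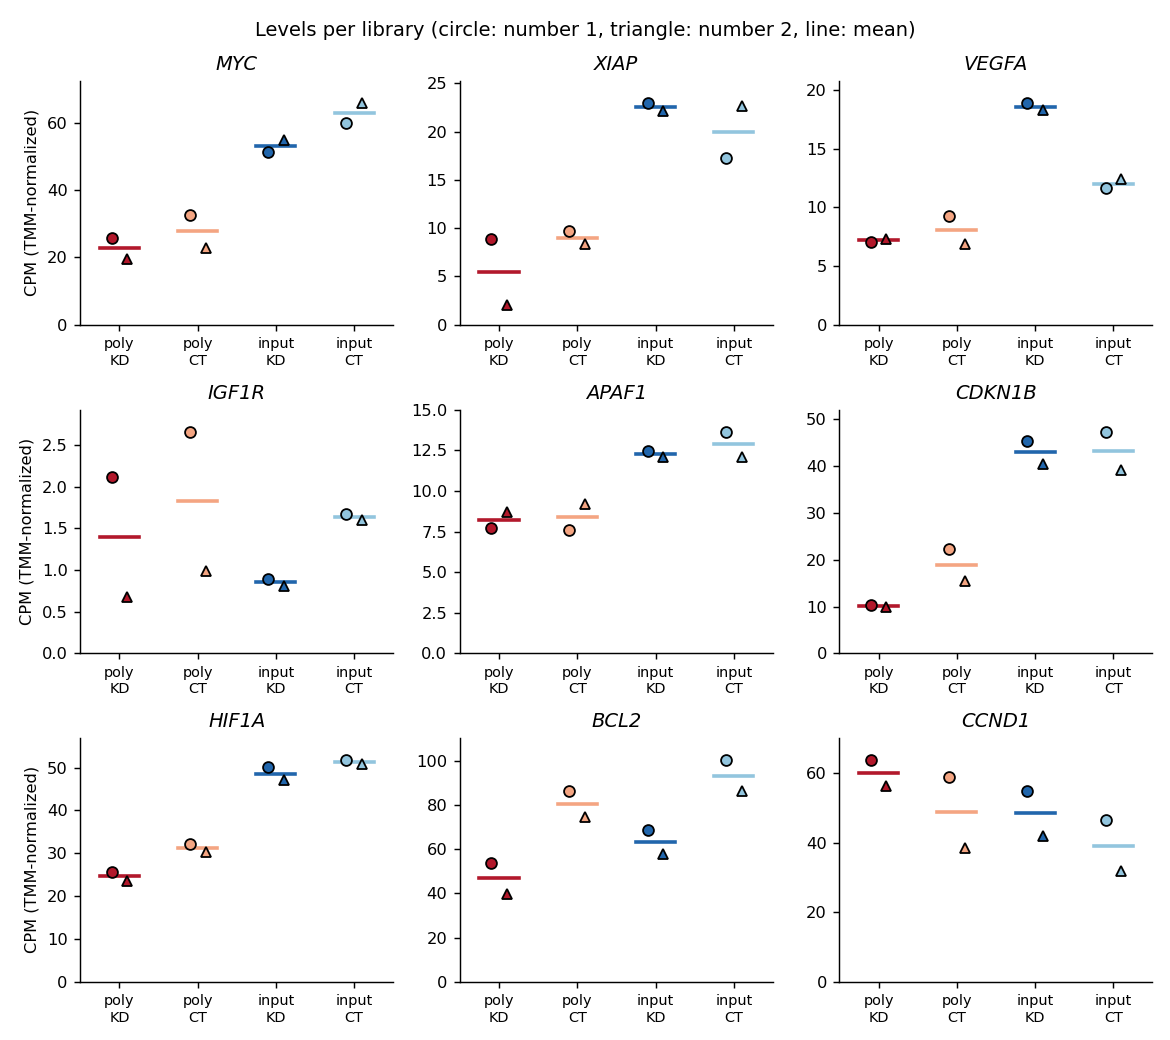
Level of each of the 9 mRNAs in every library, in CPM after TMM normalization. KD and CT are the libraries labelled knockdown and control, circles are number 1, triangles number 2 and lines the mean of 2 libraries. For CDKN1B, XIAP, MYC, VEGFA, HIF1A and APAF1 all 4 polysome libraries lie below all 4 input libraries.

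Among the growth regulators, MYC, the transcription factor that drives ribosome production and cell growth, lies on chromosome 8 at 127735434 to 127741434 (GRCh38, GENCODE release 29). MYC had 25.9 and 19.6 CPM in polysome knockdown libraries 1 and 2 and 32.5 and 22.8 CPM in polysome control, against 51.3 and 54.9 CPM in input knockdown and 59.9 and 65.7 CPM in input control. Every polysome library was below every input library. MYC was lower in polysome RNA by a log2FC of -1.20 (SE 0.15, adjusted p = 9.9e-05, edgeR).

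HIF1A encodes the oxygen-regulated subunit of the hypoxia-inducible factor (chromosome 14: 61695513 to 61748259). HIF1A had 25.7 and 23.5 CPM in polysome knockdown and 32.1 and 30.2 CPM in polysome control, against 50.0 and 47.2 CPM in input knockdown and 51.7 and 50.8 CPM in input control. The libraries within a group differed little, and the polysome and input values did not overlap. The log2FC was -0.85 (SE 0.10, adjusted p = 1.1e-04, edgeR).

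VEGFA, which encodes the main growth factor of blood vessels (chromosome 6: 43770184 to 43786487), had 7.08 and 7.28 CPM in polysome knockdown and 9.26 and 6.86 CPM in polysome control. In input RNA VEGFA stood at 18.9 and 18.3 CPM in knockdown and 11.6 and 12.4 CPM in control. The polysome libraries were all lower, by a log2FC of -0.97 (SE 0.18, adjusted p = 0.0015, edgeR). Within the libraries labelled control alone it was -0.57 (SE 0.25, adjusted p = 0.122, edgeR), a lost call.

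CCND1, the gene of the G1 cyclin D1 (chromosome 11: 69641087 to 69654474), lay on the other side. CCND1 had 63.8 and 56.4 CPM in polysome knockdown and 59.0 and 38.5 CPM in polysome control, against 54.8 and 42.0 CPM in input knockdown and 46.4 and 31.9 CPM in input control. The 2 fractions overlapped, yet in each lysate the polysome library was above its input, at ratios of 1.16 and 1.34 in knockdown lysates and 1.27 and 1.21 in control lysates. The log2FC was 0.31 (SE 0.17, adjusted p = 0.171, edgeR), and with the lysate as a block it was 0.31 (SE 0.10, adjusted p = 0.015, edgeR) and passed. CCND1 shares exons on the opposite strand with LTO1, and the sources used here do not say whether counting used strand.

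IGF1R, the receptor kinase for insulin-like growth factors (chromosome 15: 98648539 to 98964530), was the least expressed member. IGF1R had 76 and 14 reads in polysome knockdown and 92 and 36 in polysome control, against 30 and 38 in input knockdown and 67 and 59 in input control. In CPM this was 2.12 and 0.675 in polysome knockdown and 2.66 and 0.992 in polysome control, against 0.890 and 0.814 in input knockdown and 1.67 and 1.60 in input control. The polysome libraries numbered 1 were well above those numbered 2 under both labels. The log2FC of 0.44 (SE 0.63, adjusted p = 0.612, edgeR) turned to -0.09 without polysome knockdown 1 and to -0.01 without polysome control 1, so no direction can be given at this depth.

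CDKN1B encodes p27, an inhibitor of cyclin-dependent kinases that holds cells in G1 (chromosome 12: 12715058 to 12722371). CDKN1B had 10.4 and 9.79 CPM in polysome knockdown and 22.2 and 15.5 CPM in polysome control, against 45.4 and 40.5 CPM in input knockdown and 47.4 and 39.2 CPM in input control. All 4 polysome libraries were far below all 4 input libraries. With a log2FC of -1.64 (SE 0.15, adjusted p = 1.8e-05, edgeR), CDKN1B was the lowest of the 9 on polysomes, and 15.2% of genes tested had a lower value.

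Of the apoptosis regulators, XIAP, an inhibitor of caspases (chromosome X: 123859724 to 123913979), had 8.83 and 2.03 CPM in polysome knockdown and 9.67 and 8.32 CPM in polysome control. In input RNA XIAP stood at 22.9 and 22.2 CPM in knockdown and 17.3 and 22.7 CPM in control. Polysome knockdown 2, the shallowest library, held 42 reads of XIAP and stood apart from the other 3 polysome libraries. XIAP was lower in polysome RNA by a log2FC of -1.59 (SE 0.35, adjusted p = 0.0046, edgeR), and without that library by -1.26 (SE 0.18, adjusted p = 1.9e-04, edgeR). Without polysome knockdown 1 it was -2.32 (SE 0.20, adjusted p = 8.0e-06, edgeR). Within the libraries labelled control alone it was -1.15 (SE 0.49, adjusted p = 0.111, edgeR) and was not called.

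APAF1, the scaffold of the apoptosome that activates caspases (chromosome 12: 98645141 to 98735433), had 7.72 and 8.73 CPM in polysome knockdown and 7.61 and 9.20 CPM in polysome control. Its input levels were 12.5 and 12.1 CPM in knockdown and 13.7 and 12.1 CPM in control, above every polysome library. The log2FC was -0.60 (SE 0.18, adjusted p = 0.023, edgeR). The call was lost in each fit that left out an input library (adjusted p = 0.073 and 0.061 without input knockdown 1 and 2, 0.096 and 0.054 without input control 1 and 2) and without polysome control 1 (0.061), at log2FCs of -0.67 to -0.54 (edgeR). Within labels it was -0.58 in knockdown (adjusted p = 0.122) and -0.61 in control (adjusted p = 0.102, edgeR).

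BCL2, the founding antiapoptotic protein of its family (chromosome 18: 63123346 to 63320128), had 53.9 and 39.9 CPM in polysome knockdown and 86.5 and 74.5 CPM in polysome control. In input RNA BCL2 stood at 68.8 and 57.8 CPM in knockdown and 100.4 and 86.4 CPM in control. The fractions overlapped, with polysome control in the range of input RNA, and each polysome library was below its own input. The log2FC was -0.32 (SE 0.12, adjusted p = 0.059, edgeR), and with the lysate as a block it was -0.33 (SE 0.09, adjusted p = 0.0041), which passed. The call was also made without input knockdown 2, input control 2 or polysome knockdown 1 (adjusted p = 0.035, 0.041 and 0.0096).

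**Figure D2:**
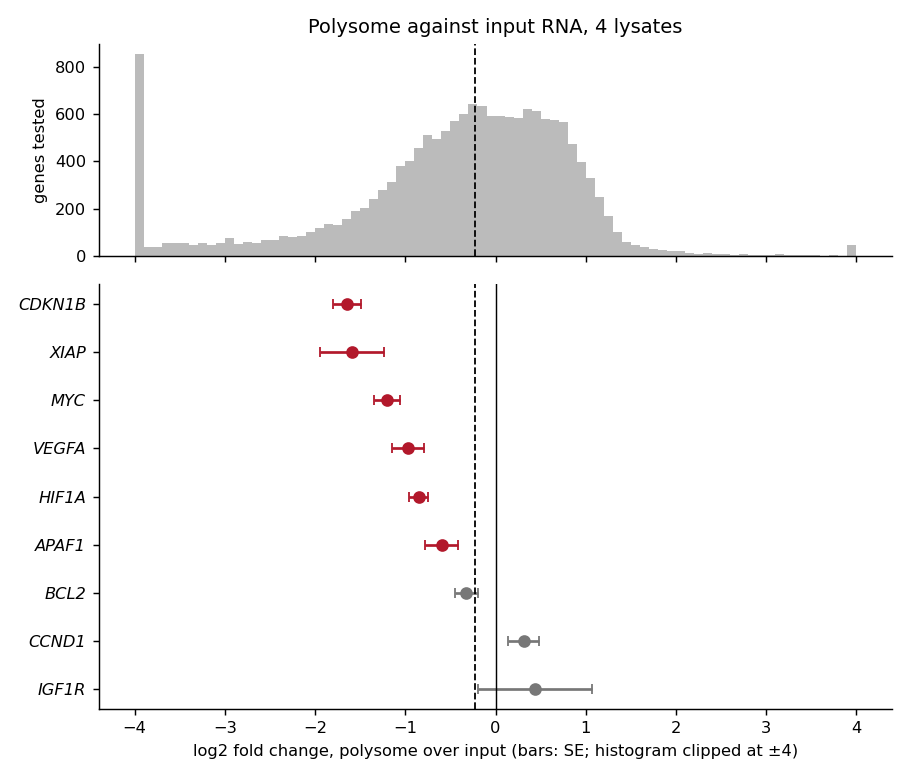
Upper panel, log2FC of polysome over input RNA for all 16503 genes tested, with values beyond the axis put at its ends and a dashed line at the median of -0.22. Lower panel, the 9 members with SE bars, red where the adjusted p was under 0.05 in the model without pairing of lysates. The 6 in red lie from -1.64 to -0.60, and BCL2, CCND1 and IGF1R were not called in that model.

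Levels were ordered per kilobase of annotated exon, as the mean of 4 libraries. In polysome RNA the order was CCND1 at 11.3 ± 2.29, MYC at 8.40 ± 1.84, BCL2 at 5.42 ± 1.77, HIF1A at 5.41 ± 0.766, CDKN1B at 5.15 ± 2.05, APAF1 at 1.05 ± 0.0983, XIAP at 0.799 ± 0.388, VEGFA at 0.528 ± 0.0767 and IGF1R at 0.116 ± 0.0671 CPM per kb (SD, n = 4). In input RNA the order was MYC at 19.3 ± 2.09, CDKN1B at 15.3 ± 1.38, HIF1A at 9.69 ± 0.381, CCND1 at 9.07 ± 1.98, BCL2 at 6.66 ± 1.60, XIAP at 2.36 ± 0.296, APAF1 at 1.59 ± 0.0929, VEGFA at 1.06 ± 0.264 and IGF1R at 0.0893 ± 0.0327 CPM per kb (SD, n = 4). CCND1 stood first in polysome RNA of both labels and behind MYC and CDKN1B in input RNA of both. CDKN1B stood behind 4 others in polysome knockdown and behind 3 in polysome control, and behind MYC alone in input RNA of both labels. The rest of the order was not the same under both labels: per kb, HIF1A was above BCL2 and CDKN1B in polysome knockdown and below both in polysome control, and CCND1 was above HIF1A in input knockdown and below it in input control. The library ranges of neighbours in the polysome order overlapped from CCND1 down to CDKN1B and from APAF1 down to VEGFA. In the input order only HIF1A with CCND1 and CCND1 with BCL2 overlapped among neighbours. Exon length was taken over all annotated transcripts, which understates the level of genes with many, such as VEGFA.

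The annotated untranslated regions were compared with 13039 tested genes that have a coding transcript in the annotation. Members were listed for entry sites reported in 5′ untranslated regions, so the length of that region is not independent of the choice. The 5′ untranslated region was longer than the gene median of 198 bases in 8 of the 9, with a member median of 525 bases, and ranged from 164 bases in the VEGFA transcript taken to 1462 bases in BCL2. Its GC content was above the gene median of 66.0% in 4 of 9. BCL2 had 11 upstream ATG triplets and APAF1 had 3, while the gene median was 1. The 3′ untranslated region had a member median of 1344 bases, against 1023 bases for all genes, and XIAP, IGF1R and BCL2 were past 94.4% of genes. ATTTA pentamers, the core of AU-rich elements that govern mRNA decay, were counted on the transcript strand. They numbered from 1 in VEGFA to 20 in XIAP, with a member median of 7 against 2. The VEGFA transcript taken is 1199 bases long, against 14431 bases of annotated exon for the gene. Its region lengths, ATTTA count and 3′ GC content, here and below, are of that 1 transcript and may differ in others.

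Base composition moved with polysome association over the whole set of genes. Across genes, which are not independent replicates, the polysome over input log2FC had a Spearman rho of 0.56 with the GC content of the 3′ untranslated region (12914 genes, ordered below into 4 bins of equal size) and 0.51 with that of the coding sequence (13039 genes). It was -0.36 with the number of ATTTA pentamers in the 3′ untranslated region and 0.20 with the GC content of the 5′ untranslated region. It was -0.01 with 5′ untranslated length and -0.16 with 3′ untranslated length. All these points share the same 8 libraries. In the bin with the lowest 3′ GC content, 51.7% were called lower in polysome RNA and 4.00% higher. That bin holds MYC (27.3% GC), HIF1A (29.3%) and CDKN1B (33.4%), all called lower. The next bin, where 32.5% were called lower and 8.95% higher, holds XIAP (37.6%), BCL2 (40.6%) and APAF1 (41.3%). The bin above that, where 10.1% were called lower and 33.0% higher, holds CCND1 (46.2%), IGF1R (47.1%) and VEGFA (49.1%), of which VEGFA alone was called, and lower. The part of base composition or of ATTTA number in the members' values was not tested.

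**Figure D3:**
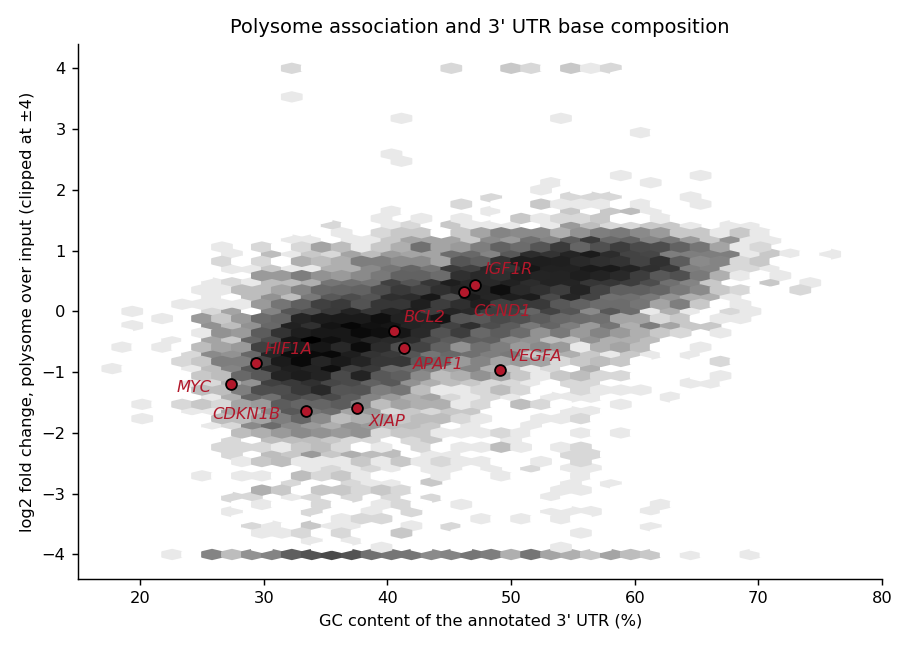
Log2 fold change of polysome over input RNA against GC content of the annotated 3′ untranslated region, with grey hexagons for all tested genes that have one (darker is more genes, on a log scale; values beyond 4 put at the ends) and red points for the 9 members. MYC, HIF1A and CDKN1B lie at 27.3% to 33.4% GC, and VEGFA lies low for the 49.1% of the 1199-base transcript taken.

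The libraries labelled knockdown were compared with those labelled control in polysome RNA, to ask whether ribosome-bound amounts of these mRNAs went with the label. No member was called by edgeR, where 0.879% of all genes were (0.248% higher, 0.63% lower; 41 and 104 genes, which became 53 and 48 under upper quartile scaling). Without adjustment, 3 of the 9 had p under 0.05 (CDKN1B, HIF1A and BCL2, all lower), and 18.1% of all genes had. DESeq2 called 2 of the 9 lower and limma-voom none, where they called 3.16% and 1.35% of all genes lower. Shares for DESeq2, here and below, are over 22560 genes with a p-value, including those given no adjusted p. Those for limma-voom are over the 16503 genes that passed the filter. In 3 members both knockdown libraries lay below both control libraries, a state shared by 23.6% of all genes, and in none above, which 15.4% of all genes were. The median log2FC was -0.34 over the members and -0.06 over all genes tested.

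BCL2 averaged 46.9 ± 9.89 CPM in polysome knockdown and 80.5 ± 8.50 CPM in polysome control (SD, n = 2 each), a log2FC of -0.78 (SE 0.18, adjusted p = 0.071, edgeR). DESeq2 gave -0.74 (SE 0.19, adjusted p = 0.0038). CDKN1B averaged 10.1 ± 0.407 CPM in polysome knockdown and 18.9 ± 4.73 CPM in polysome control, a log2FC of -0.90 (SE 0.22, adjusted p = 0.080, edgeR), and DESeq2 gave -0.86 (SE 0.24, adjusted p = 0.011). For both genes the knockdown library was the lower within number 1 and within number 2. Without polysome knockdown 1, BCL2 was called at -1.01 (SE 0.19, adjusted p = 0.013, edgeR), and without any other single library neither gene was called, at adjusted p up to 0.206 for BCL2 and 0.251 for CDKN1B. Over all alternatives run, the adjusted p ranged from 9.5e-04 to 0.304 for BCL2 and from 0.010 to 0.399 for CDKN1B. HIF1A was at 25.7 and 23.5 CPM in polysome knockdown, against 32.1 and 30.2 CPM in polysome control (log2FC -0.34, SE 0.15, adjusted p = 0.264, edgeR).

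The other members overlapped between labels in polysome RNA. XIAP had a log2FC of -0.70 (SE 0.50, adjusted p = 0.475, edgeR) that rested on polysome knockdown 2. Without that library it was -0.02, and with that library as the only knockdown polysome sample it was -2.15 (adjusted p = 0.0082, edgeR, the lone sample being assumed to vary like the other groups). MYC was at -0.28 (SE 0.20), IGF1R at -0.38 (SE 0.89), VEGFA at -0.17 (SE 0.25), APAF1 at -0.03 (SE 0.26) and CCND1 at 0.30 (SE 0.24), with adjusted p from 0.486 to 0.991 (edgeR). The sign of APAF1 turned under relative log expression and upper quartile scaling, which moved the median of all genes by 0.04 and 0.08 on the log2 scale, about as far as APAF1 itself.

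In input RNA the same comparison asks about total amounts. No member was called by edgeR, DESeq2 or limma-voom, which called 0.0%, 0.288% and 0.0182% of all genes, though DESeq2 gave no adjusted p for 7 of the 9. BCL2 and VEGFA had an unadjusted p under 0.05, as did 4.51% of all genes. BCL2 averaged 63.3 ± 7.80 CPM in input knockdown and 93.4 ± 9.94 CPM in input control (log2FC -0.56, SE 0.17, adjusted p = 0.825, edgeR). VEGFA was at 18.9 and 18.3 CPM in input knockdown, against 11.6 and 12.4 CPM in input control (log2FC 0.63, SE 0.25, adjusted p = 1, edgeR). Both VEGFA knockdown libraries were above both control libraries, a state shared by 21.1% of all genes. MYC, IGF1R, HIF1A and BCL2 had both knockdown libraries below both control libraries, as had 20.3% of all genes, with HIF1A apart by only 50.0 and 47.2 CPM in knockdown against 51.7 and 50.8 CPM in control.

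CDKN1B did not separate in input RNA, at 42.9 ± 3.41 CPM in knockdown and 43.3 ± 5.80 CPM in control (SD, n = 2 each, log2FC -0.01, SE 0.21). The remaining members were at log2FCs of -0.94 (SE 0.90) for IGF1R, -0.24 (SE 0.20) for MYC, -0.08 (SE 0.15) for HIF1A, -0.07 (SE 0.25) for APAF1, 0.17 (SE 0.48) for XIAP and 0.31 (SE 0.24) for CCND1, each with an adjusted p of 1 (edgeR). The member median was -0.07 and that of all genes 0.00.

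**Figure D4:**
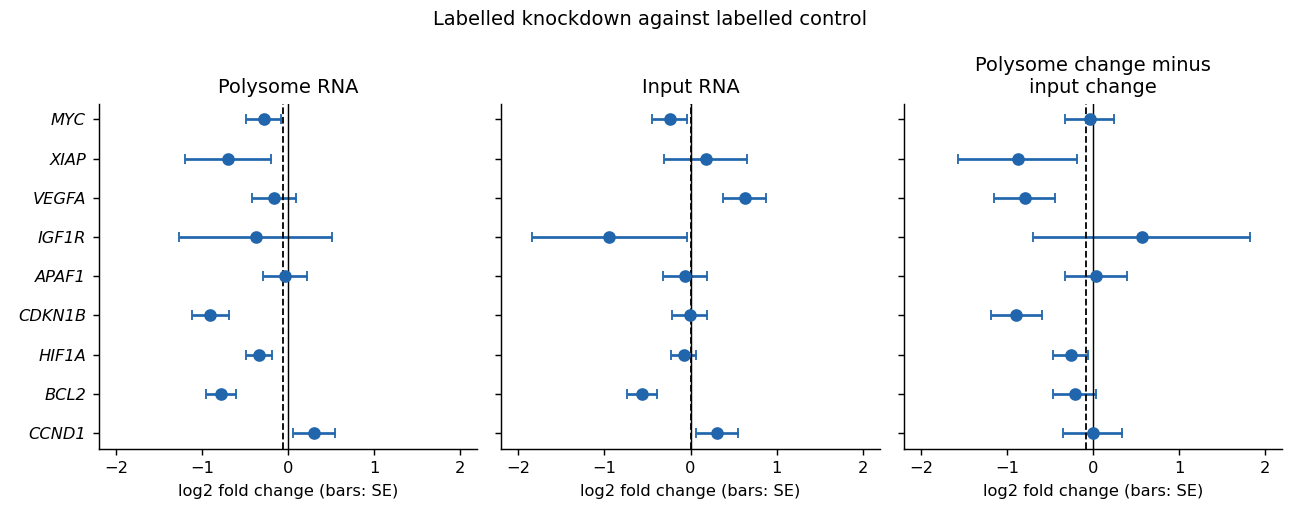
Log2 fold change with SE bars of libraries labelled knockdown against those labelled control, in polysome RNA, in input RNA and as the difference between these changes, with a dashed line at the median of all genes tested. No member had an adjusted p under 0.05 in any panel, in the model without blocks. CDKN1B lies at -0.90 in polysome RNA and -0.01 in input RNA, and BCL2 at -0.78 and -0.56.

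Whether the polysome share of an mRNA went with the label was read from the difference between its polysome and input change. None of the 9 passed with edgeR, DESeq2 or limma-voom, which called 0.0%, 0.0133% and 0.0% of all genes. CDKN1B had an unadjusted p under 0.05, as did 6.34% of all genes. The polysome over input ratio of CDKN1B was 0.229 and 0.242 in the lysates labelled knockdown, against 0.468 and 0.396 in those labelled control. These did not overlap, and the log2 difference was -0.89 (SE 0.30, adjusted p = 0.767, edgeR). VEGFA had ratios of 0.375 and 0.399 in knockdown lysates, against 0.796 and 0.555 in control lysates (log2 difference -0.80, SE 0.36, adjusted p = 0.773, edgeR). The VEGFA ratios did not overlap either, while its polysome levels overlapped between labels and its input levels did not.

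HIF1A ratios of 0.513 and 0.499 in knockdown lysates, against 0.620 and 0.595 in control lysates, and BCL2 ratios of 0.784 and 0.691 in knockdown lysates, against 0.861 and 0.862 in control lysates, were also apart. Their log2 differences were -0.26 (SE 0.21) and -0.21 (SE 0.25), at adjusted p of 0.840 and 0.921 (edgeR). Lysates of the labels were parted in this way, with knockdown lower, for 4 members and for 24.6% of all genes, and with knockdown higher for no member and 14.9% of all genes. XIAP had ratios of 0.385 and 0.0914 in knockdown lysates, against 0.559 and 0.367 in control lysates, and a log2 difference of -0.87 (SE 0.69, adjusted p = 0.840, edgeR). Without polysome knockdown 1 that difference was -2.32 (adjusted p = 0.045) and without polysome knockdown 2 it was -0.20 (adjusted p = 0.934, edgeR). MYC at -0.04 (SE 0.29), CCND1 at 0.00 (SE 0.34), APAF1 at 0.03 (SE 0.36) and IGF1R at 0.56 (SE 1.26) overlapped between labels, and MYC and CCND1 changed sign under relative log expression and upper quartile scaling, which moved the median of all genes by 0.07 each, about as far as these genes. With the lysate as a block no member was called and 0.0545% of all genes were, the smallest adjusted p being 0.216 for CDKN1B.

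**Figure D5:**
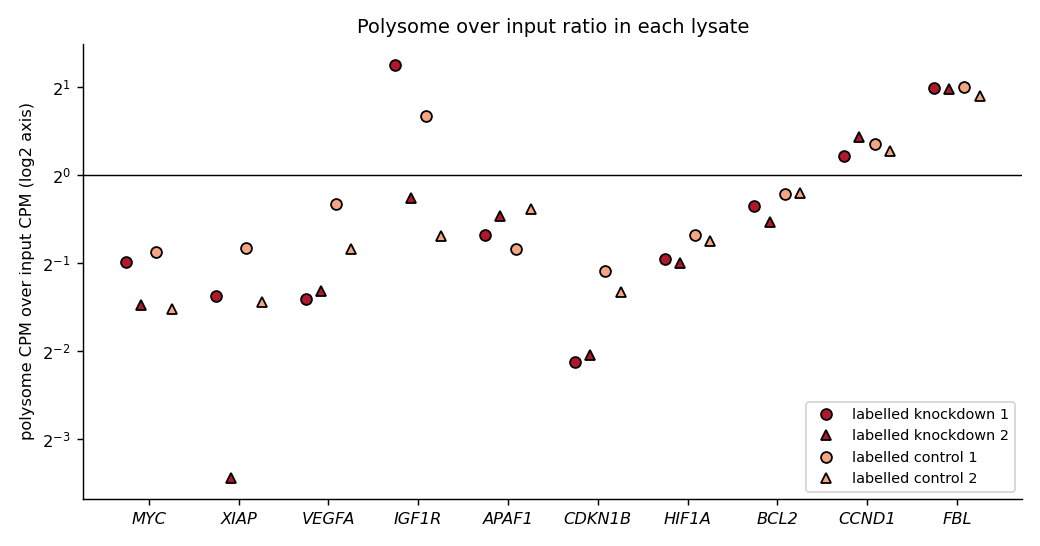
Polysome over input CPM ratio of each lysate on a log2 axis, dark red for lysates labelled knockdown and light for control, circles for number 1 and triangles for number 2. CDKN1B ratios are 0.229 and 0.242 in knockdown and 0.468 and 0.396 in control, XIAP is at 0.0914 in knockdown 2, and FBL lies between 1.85 and 1.99 in all 4 lysates.

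Further mRNAs reported with internal entry sites were taken from a list of 40, of which 30 passed the filter on low counts. In polysome against input RNA 8 of the 30 were called higher and 6 lower, where 20.0% and 22.8% of all genes were, and the median log2FC was 0.01 for the 30 and -0.22 for all genes. The highest was EIF4G1, the scaffold of the cap-binding complex, at 639.7 and 691 CPM in polysome knockdown and 710.2 and 726 CPM in polysome control, against 277 and 308 CPM in input knockdown and 312 and 285 CPM in input control (log2FC 1.23, SE 0.07). MYCL, a MYC relative, rose by 1.21 (SE 0.24) and BCL2L1, the gene of the antiapoptotic BCL-xL, by 0.95 (SE 0.09). The lowest were BIRC2, an inhibitor of apoptosis like XIAP, at -0.88 (SE 0.15), the tumour suppressor APC at -0.83 (SE 0.28) and the endoplasmic reticulum chaperone HSPA5 at -0.69 (SE 0.11). Adjusted p for these 6 ranged from 1.8e-06 to 0.036 (edgeR). By label, edgeR without blocks called none of the 30 in either fraction or for the difference. The numbers at an unadjusted p under 0.05 were 7 of 30 in polysome RNA, 3 in input RNA and 0 for the difference, where the shares of all genes were 18.1%, 4.51% and 6.34%. Of the 40, DESeq2 called 1 lower in each fraction, though it gave no adjusted p for many. It called 3.16% of all genes lower in polysome RNA and 0.137% in input RNA. The limma-voom fit called none of the 30.

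Proteins reported to act on such entry sites, among them RNA-binding proteins and a few ribosomal proteins, were a list of 31, all of them tested. In polysome against input RNA 6 of the 31 were called higher and 15 lower, beside the same 20.0% and 22.8% of all genes, and their median log2FC was -0.13, beside -0.22. The cold-shock protein YBX1 stood at 395 ± 33.1 CPM in polysome knockdown and 424 ± 17.5 CPM in polysome control, against 1020 ± 14.3 CPM in input knockdown and 1062 ± 13.5 CPM in input control (SD, n = 2 each; log2FC -1.35, SE 0.06, adjusted p = 1.0e-06, edgeR). MDM2, the ubiquitin ligase of p53, had a log2FC of -1.17 (SE 0.17) and TIAL1, a stress granule protein, had a log2FC of -1.14 (SE 0.15). The highest were nucleolin NCL at 0.59 (SE 0.18), the ribosomal scaffold RACK1 at 0.55 (SE 0.06) and the splicing regulator HNRNPL at 0.53 (SE 0.07). NCL was uneven, at 841 and 899 CPM in polysome knockdown and 1159 and 2387 CPM in polysome control. By label none of the 31 was called by edgeR without blocks. The numbers at an unadjusted p under 0.05 were 10 of 31 in polysome RNA, 4 in input RNA and 2 for the difference, beside the same shares of all genes. DESeq2 called 1 higher and 2 lower in polysome RNA, where it called 2.39% of all genes higher and 3.16% lower, and none otherwise. The limma-voom fit called 1 lower in polysome RNA, where it called 1.35% of all genes lower.

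Each member was set beside the gene whose level was most like its own over the 8 libraries, by Pearson's r of log2(CPM + 1) searched over the 8159 genes that averaged 10 CPM or more. These were LTV1 for HIF1A (r = 0.997), VCPIP1 for XIAP (0.997), ARL6IP6 for CDKN1B (0.995), FRG1 for APAF1 (0.992), ASPM for MYC (0.992), FAM136A for BCL2 (0.983), CCPG1 for VEGFA (0.967), PLAAT4 for CCND1 (0.940) and WDR45B for IGF1R (0.928). The 8 points share the fraction, the label and the number. The closest gene was a different one for each member. Each r is the highest of a search over 8159 genes on 8 points, so the search favours a high value, and none was tested. The r of IGF1R rests on 14 to 92 reads a library.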

How the data were processed

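The deposited files hold counts of reads per gene for 8 libraries; the authors used Trimmomatic 0.38, Bowtie2 and HTSeq 0.11.2 with GRCh38, per the submitters' processing notes. Annotation release, layout and strand are not stated there. Bowtie2 aligns without splicing, so junction reads may be missing. Lines naming no gene (13.2% to 15.0% of reads listed) were left out. Symbols were found for 57754 of 58395 identifiers, and 58275 are in GENCODE release 29.

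edgeR 4.0.16 (R 4.3.3) fitted the counts (quasi-likelihood F test, TMM, filterByExpr, 16503 genes) in 1 model of 4 groups with 4 residual degrees of freedom, Benjamini-Hochberg adjustment over all genes and calls at adjusted p under 0.05. Polysome against input is the mean over both labels. The alternatives were DESeq2 1.42.0, limma 3.58.1 (voom), other scalings and filters, 4 libraries alone, blocks, and leaving out each library. The code was tested on simulated data.

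The members and lists were chosen with earlier results of these data known. Named are all members, FBL, the gene most like each member, and the 3 highest and 3 lowest calls of each list. MPO and NPM1 are named from the marker list, and LTO1 for the exons it shares with CCND1. Titles show that input and polysome libraries share a lysate, and their deviations correlated at 0.36 in knockdown and 0.31 in control (8159 genes). Libraries of a group differed by a chi-square of 22.1 to 48.7 per degree of freedom. Transcript features are of 1 basic coding transcript a gene, by APPRIS rank and then coding length.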

Additional observations from a re-analysis of the deposited data

How the results depend on the processing

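In polysome against input RNA, MYC, CDKN1B and HIF1A kept direction and call under every alternative run, and VEGFA and XIAP under all but control libraries alone. BCL2 gained its call under upper quartile scaling, with no filter on low counts and at a mean of at least 10 CPM. The 6 members called became 3 in control libraries alone and 5 to 7 with a library left out, and the 7072 genes called became 4697 in knockdown libraries alone and 5537 to 7705 with a library left out, where IGF1R ranged from -0.095 to 0.73. By label in polysome RNA, the 0 members called became 2 with no filter (4.95% of all genes), 1 at 10 CPM (3.98%), 2 with DESeq2, 2 with the library number as a replicate block (BCL2 -0.79, CDKN1B -0.89; 6.38%), and 0 to 2 with a library left out. The 145 genes called became 1117 with no filter, 326 at 10 CPM, 1253 with DESeq2, 297 with limma-voom, 1053 with the replicate block and 0 with polysome libraries alone. With a library left out they were 0 (polysome control 2) to 1455 (polysome knockdown 1), and 5 to 63 without each other library. In input RNA the 0 genes became 83 with no filter, 65 with DESeq2, 3 with limma-voom, 66 with the replicate block and 0 to 1 with a library left out. For the difference they became 55 with no filter, 3 with DESeq2, 9 with the lysate block and 0 to 55 with a library left out (55 without polysome knockdown 1, 16 without polysome control 1), and members called 0 to 1. Signs turned for APAF1 in polysome RNA by label, at 0.014 (relative log expression), 0.051 (upper quartile), 0.039 (no filter), 0.061 (10 CPM), 0.012 (DESeq2), 0.041 (polysome libraries alone) and -0.17 to 0.11 with a library left out, where VEGFA ranged from -0.36 to 0.063 and IGF1R from -1.43 to 0.50. In input RNA CDKN1B turned at 0.0014 (upper quartile), and with a library left out ranged from -0.16 to 0.11, XIAP from -0.031 to 0.37 and APAF1 from -0.17 to 0.00016. For the difference, MYC was at 0.023 (relative log expression), 0.027 (upper quartile), 0.051 (no filter), 0.049 (10 CPM), 0.024 (DESeq2) and 0.011 (limma-voom), and CCND1 at 0.061, 0.066, 0.088, 0.087, 0.061 and 0.063 in that order and 0.012 with the lysate block. With a library left out, MYC ranged there from -0.27 to 0.24, CCND1 from -0.28 to 0.34, BCL2 from -0.45 to 0.0091, APAF1 from -0.098 to 0.21 and IGF1R from -0.49 to 1.44. The causes were not tested. The lysate block changed no call of a member beside those of BCL2 and CCND1. Deviations of same-numbered libraries correlated across labels at 0.18 in polysome and 0.47 in input RNA, the labels giving them only a number in common. Depth limits IGF1R, at 14 to 92 reads, and XIAP, at 42 reads in polysome knockdown 2.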

Other observations

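The numbers 1 and 2 mark no treatment in the labels, so values by number are given without a test. FBL was lower in the library numbered 2 than in that numbered 1 in all 4 groups, at -66.8% in polysome knockdown, -67.2% in polysome control, -66.7% in input knockdown and -64.8% in input control. Among the members, 5 were lower in the library numbered 2 in all 4 groups (IGF1R, CDKN1B, HIF1A, BCL2 and CCND1), XIAP in 3 groups, and MYC, VEGFA and APAF1 in 2. The share of all genes lower in this way is not given here, so these counts do not show that the members follow FBL. IGF1R came nearest to the size of the FBL difference in polysome RNA, at -68.1% in knockdown and -62.7% in control, but was at -8.57% in input knockdown and -4.10% in input control, on 14 to 92 reads. CCND1 was at -11.5% and -34.8% in polysome knockdown and control, and at -23.4% and -31.3% in input knockdown and control. BCL2 lay between -25.9% and -13.9% in the 4 groups. MYC was lower in number 2 in polysome RNA, at -24.3% in knockdown and -29.8% in control, and higher in input RNA, by 6.90% in knockdown and 9.67% in control.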
